A study of Rattus norvegicus with 10 samples.

Results

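Fos, Fosb, Jun and Junb encode subunits of AP-1, a transcription factor made of a pair of basic leucine zipper proteins. The 4 genes were chosen from the AP-1 family with the difference between MK-801 and control in these same counts already known, so their values in that comparison are given as a description, without a p-value. Rows were found by Ensembl identifier for 3 of the 4 genes among the 30560 genes listed, namely Fos (ENSRNOG00000008015), Fosb (ENSRNOG00000046667) and Jun (ENSRNOG00000026293). Junb (ENSRNOG00000042838) is not analysed here.

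The data are RNA-seq counts of the prefrontal cortex (PFC) of 10 male wild-type Sprague-Dawley (SD) rats, 5 injected with saline (0.9%) as the control group and 5 with MK-801 at 0.2 mg/kg. MK-801 is a non-competitive antagonist of the NMDA receptor, a glutamate-gated ion channel, and its repeated administration is used as a rat model relevant to schizophrenia. Rats of both groups were 21 days old on arrival, were habituated for 1 week, lived in single cages and were injected intraperitoneally for 2 weeks. The interval between the last injection and the collection of the tissue is not given in the sources used here for these rats. Each rat gave 1 library, with a total of 24348037 to 29375092 counts in control rats and 24334589 to 30824539 counts in MK-801 rats. The 10 most abundant genes of each rat took between 6.0% and 10.9% of its counts in the control group and between 5.86% and 7.05% in the MK-801 group. The deposited identifiers are not paired with gene names, so markers of neurons, glia, blood or striatum could not be looked up and the tissue label was not checked against them.

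Fos and Jun are known as immediate early genes, whose transcripts appear within minutes of synaptic activity or growth factor signals without any need for new protein synthesis. The protein of Fos does not form stable pairs with itself and binds DNA as a partner of Jun proteins, whereas Jun proteins can also pair with each other. Fosb gives a full-length protein and, by alternative splicing, the truncated and long-lived ΔFosB, which is known to accumulate in the forebrain during repeated stimulation. Counts per gene do not separate these Fosb transcripts. In a piece of tissue, a change in the number of cells that express a gene and a change in the RNA per cell cannot be told apart.

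Fos was higher in 4 of the 5 MK-801 rats than in any control rat, and the remaining MK-801 rat lay at the level of the controls. Values are given in CPM, the count of a gene per 1000000 counts of the TMM-adjusted library. In the control group, Fos was at 6.81, 7.2, 6.84, 7.01 and 13.6 CPM in replicates 1 to 5. In the MK-801 group, it was at 6.99, 41.1, 37.5, 38.9 and 28.3 CPM in replicates 1 to 5. Control replicate 5 was thus high for its group and MK-801 replicate 1 low for its group, and the groups overlapped through these rats. The raw counts behind these values were between 177 and 402 in the controls and between 210 and 1030 with MK-801.

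The mean CPM of Fos was 30.6 ± 14.1 (SD, n = 5) with MK-801 and 8.28 ± 2.95 (SD, n = 5) with saline, a ratio of 3.69. The log2 fold change from edgeR's quasi-likelihood fit over all genes was 1.88 with a standard error of 0.39. Relative to the control median, MK-801 replicates 2 to 5 had 5.86, 5.35, 5.55 and 4.04 times the Fos level, MK-801 replicate 1 had 0.997 times and control replicate 5 had 1.93 times. Without control replicate 5 and MK-801 replicate 1, the means were 36.5 ± 5.62 CPM (SD, n = 4) and 6.97 ± 0.184 CPM (SD, n = 4), and the log2 fold change was 2.39. The level in controls 1 to 4 was very even, with a coefficient of variation of 2.65%, which is below the counting error of 7.16% to 7.52% of their single counts. Both rats that stand apart were recognised by Fos itself, so the values without them are no independent estimate.

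**Figure D1:**
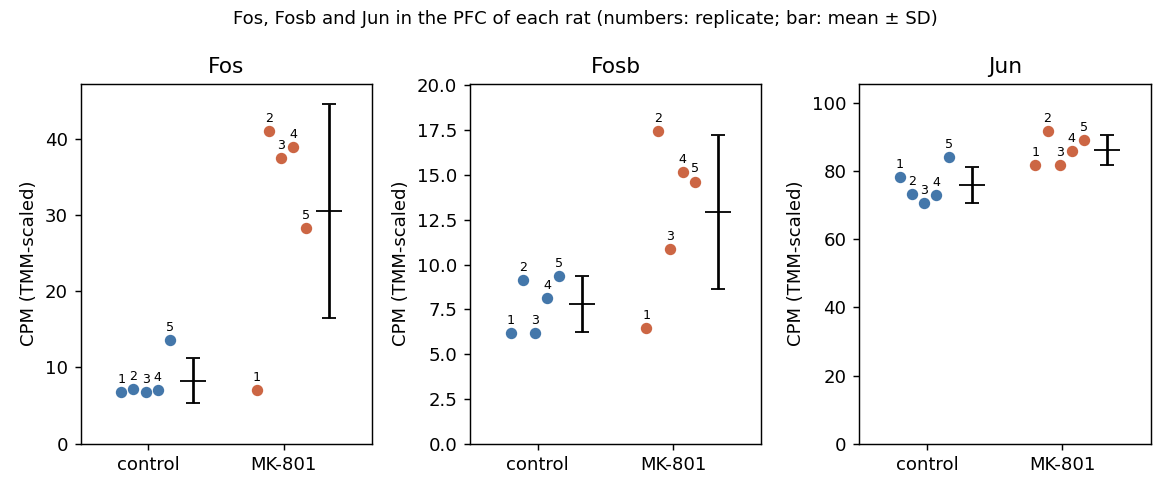
CPM of Fos, Fosb and Jun in each rat (points, numbered by replicate; vertical axes in TMM-scaled CPM, starting at 0), with the mean and SD of each group of 5 rats beside the points. Control replicate 5 is the highest control and MK-801 replicate 1 the lowest MK-801 rat in all 3 genes, by a wide gap in Fos and by 0.1 CPM or less for MK-801 replicate 1 in Jun.

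Fosb, the relative of Fos that gives rise to ΔFosB, was also higher in MK-801 replicates 2 to 5 than in every control rat, by a smaller factor. It was at 6.18, 9.12, 6.17, 8.15 and 9.38 CPM in control replicates 1 to 5. In MK-801 replicates 1 to 5, it was at 6.46, 17.5, 10.9, 15.2 and 14.6 CPM. MK-801 replicate 1 again lay among the controls, above 2 of them, and MK-801 replicate 3 was the lowest of the others although its Fos level was close to those of replicates 2 and 4. The mean CPM was 12.9 ± 4.32 (SD, n = 5) with MK-801 and 7.80 ± 1.55 (SD, n = 5) with saline, and the log2 fold change was 0.73 with a standard error of 0.23. Control replicate 5 did not stand apart in Fosb, since control replicate 2 had nearly the same level. Without both rats named above, the log2 fold change of Fosb was 0.98.

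Jun, the main partner of Fos proteins, was the most abundant of the 3 in counts and the most even between rats. It was at 78.2, 73.2, 70.7, 73.0 and 84.0 CPM in control replicates 1 to 5. In MK-801 replicates 1 to 5, it was at 81.8, 91.9, 81.9, 85.8 and 89.2 CPM. All 5 MK-801 rats lay above the control median and 3 of them above the highest control, with control replicate 5 lying inside the range of the MK-801 group. The mean CPM was 86.1 ± 4.45 (SD, n = 5) with MK-801 and 75.8 ± 5.33 (SD, n = 5) with saline, a ratio of 1.14. The log2 fold change of Jun was 0.18 with a standard error of 0.06, and 0.24 without the same 2 rats. With 1799 to 2768 counts per rat, the counting error of Jun was 1.90% to 2.36%.

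The log2 fold changes of the 3 genes lay in the upper part of the distribution over the 16137 genes tested, whose median was -0.01. Only 4 genes had a higher log2 fold change than Fos, 83 had a higher one than Fosb, and 1917 had a higher one than Jun. By the criteria of the study, taken here as an unadjusted p-value under 0.05 and a log2 fold change of at least 1, Fos was called and Fosb and Jun were not, against 0.167% of all genes tested that were called in this direction. This comparison was used to choose the genes, and nothing is read from the count. At an adjusted p-value under 0.05, the quasi-likelihood test of edgeR called 0 of the 3 genes and 0% of all genes tested, whereas 2235 genes had an unadjusted p-value under 0.05. DESeq2, the tool of the study, called 106 genes at that threshold, with Fos among them and Fosb and Jun not. This was 0.444% of the 23893 genes to which it gave an unadjusted p-value. Nothing is read from these counts either. In 0 of the 3 AP-1 genes did the lowest MK-801 rat lie above the highest control, which held for 1.10% of all genes tested.

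**Figure D2:**
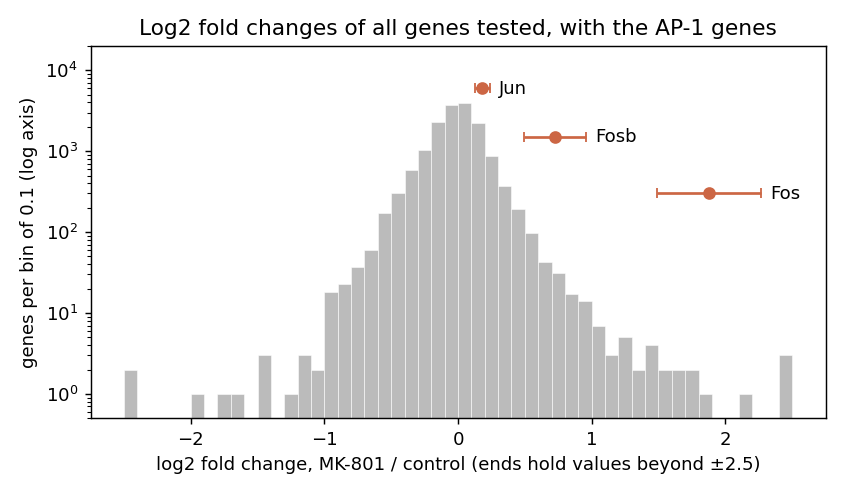
Log2 fold changes (MK-801 over control) for the 16137 genes tested (bars, genes per bin on a log axis) with Fos, Fosb and Jun (points with standard errors, at arbitrary heights). Fos, at 1.88, lies at the thin upper end, Fosb at 0.73 on the upper slope and Jun at 0.18 within the bulk of the genes.

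The spread between rats of one group also differed among the 3 genes. The standard deviation of log2 CPM within the groups was 0.82 for Fos, a larger value than 98.4% of the genes tested had. It was 0.45 for Fosb, larger than in 89.9% of the genes. For Jun it was 0.09, larger than in 16.8%, while the median over all genes was 0.16. The spread of Fos was carried by the 2 rats that stood apart. They were recognised by Fos itself, so a fall in its spread without them follows from that choice. Without MK-801 replicate 1, the spread was 0.36 for Fos and 0.29 for Fosb. Without control replicate 5 as well, it was 0.17 and 0.28, the former larger than in 55.8% of the genes. Those genes lost the same 2 rats, which were not picked by their values. Jun had a narrow spread in all 3 sets of rats, at 0.09 without MK-801 replicate 1 and 0.07 without both. By mean CPM, Fos was higher than 51.0% of the genes tested, Fosb than 38.5% and Jun than 82.7%, values that do not take account of transcript length.

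Control replicate 5 was the highest of the controls and MK-801 replicate 1 the lowest of the MK-801 group in each of Fos, Fosb and Jun, a combination that 3.83% of all genes tested showed. These rats had been recognised by Fos, so nothing is read from this count. Other rats changed place between the genes, since control replicate 1 was the lowest rat in Fos and the second highest control in Jun, and MK-801 replicate 3 was the third highest rat in Fos and the fifth in Jun. For Fos, control replicates 1 to 4 and MK-801 replicate 1 differed by less than the counting error, so their order is not resolved. For Jun, MK-801 replicate 1 and replicate 3 differed by less than the counting error. MK-801 replicate 2 was the highest of all 10 rats in each of the 3 genes. On the log2 scale, MK-801 replicate 1 lay 1.89 below its group mean in Fos, 0.91 below in Fosb and 0.07 below in Jun. Control replicate 5 lay above its group mean by 0.76 in Fos, 0.29 in Fosb and 0.15 in Jun. Over all genes tested, control replicate 5 lay above MK-801 replicate 1 in 48.9%.

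The deviations from the group means followed each other most closely in Fos and Fosb. Across the 10 rats, the correlation of these deviations was 0.84 for Fos and Fosb, 0.57 for Fosb and Jun and 0.53 for Fos and Jun, with a mean of 0.65 (Pearson). In the same order, the rank correlation (Spearman) was 0.88, 0.78 and 0.67. These values are a description of 10 libraries whose scaling they share. Deviations leave out the difference between the groups, which levels carry, but not the distance of single rats from their group. Without control replicate 5 and MK-801 replicate 1, the Pearson correlation was 0.21 for Fos and Fosb, 0.40 for Fosb and Jun and -0.10 for Fos and Jun. These 2 rats were recognised by Fos itself, and its spread without them was only 0.17. A fall in the correlations of Fos therefore follows in part from that choice, and nothing is read from it. Among the 4 remaining MK-801 rats, Fos spanned a range of 1.45 times and Fosb 1.60 times, and the rat with the lowest Fos level, replicate 5, was not the one with the lowest Fosb level, replicate 3.

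**Figure D3:**
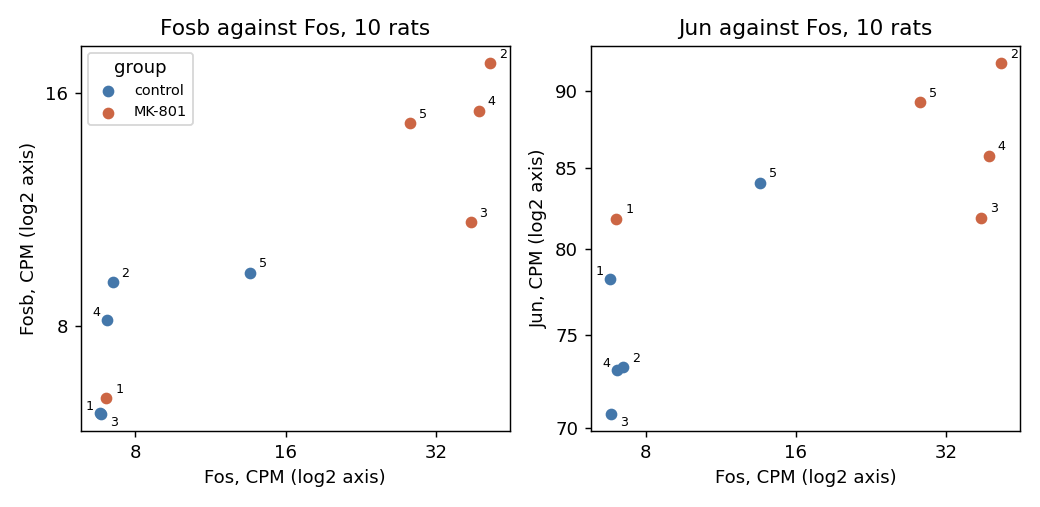
Fosb (left) and Jun (right) against Fos in the 10 rats, in CPM on log2 axes, with points coloured by group and numbered by replicate. MK-801 replicate 1 lies with the control rats in Fos and Fosb, control replicate 5 lies between the groups in Fos, and the other 4 MK-801 rats lie at 28.3 CPM or more in Fos.

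Ratios of counts within a rat restate the differences given above and are no separate result. Fos was higher by a larger factor than Fosb, and Fosb by a larger factor than Jun. Ratios with the more raised gene as the denominator were therefore lower in the rats with high Fos. The ratio of Fosb to Fos counts was 0.908, 1.27, 0.902, 1.16 and 0.692 in control replicates 1 to 5. In MK-801 replicates 1 to 5, it was 0.924, 0.425, 0.290, 0.390 and 0.516. MK-801 replicate 1 had the ratio of a control rat, and the other 4 lay below every control. These ratios compare rats and not the abundance of the genes, since the counts were not divided by length. Jun counts were between 10.2 and 11.5 times the Fos counts in control replicates 1 to 4, 6.20 times in control replicate 5 and 11.7 times in MK-801 replicate 1. In MK-801 replicates 2 to 5, they were between 2.18 and 3.15 times the Fos counts. The ratio of Jun to Fosb counts spanned 8.03 to 12.7 in the control group and 5.26 to 12.7 in the MK-801 group, where replicate 1 again had the highest value and the other 4 lay below every control.

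Scaling of the libraries had little effect on these 3 genes. With RLE, upper quartile or total count scaling, the log2 fold change was between 1.87 and 1.89 for Fos, between 0.72 and 0.74 for Fosb and between 0.17 and 0.20 for Jun. The share of counts taken by the 10 most abundant genes was lowest in control replicate 5 of the control group, at 6.0%, and was 7.05% in MK-801 replicate 1, the highest of its group. In a fit that adjusts for this share, added once the data had been seen, the log2 fold change was 1.61 for Fos, 0.55 for Fosb and 0.10 for Jun, so that the value of Jun was lower by a factor of over 1.5. The mean share was 8.27 ± 1.81% (SD) in the control group and 6.66 ± 0.47% (SD) in the MK-801 group. Since it differed between the groups, this fit can also remove part of the group difference, and its values are no correction. The part of this share in the differences between the rats was not tested further. When single rats were left out, the log2 fold change ranged from 1.75 to 2.13 for Fos, from 0.60 to 0.90 for Fosb and from 0.16 to 0.23 for Jun.

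**Figure D4:**
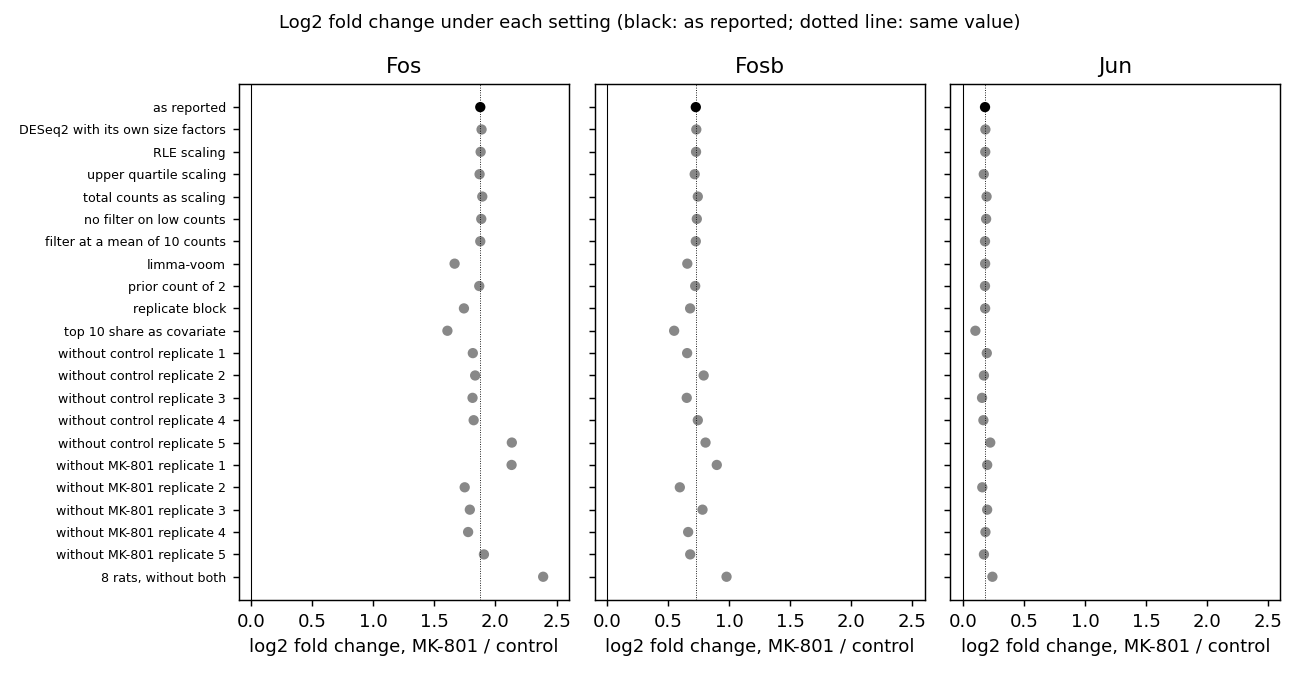
Log2 fold change (MK-801 over control) for Fos, Fosb and Jun under each processing setting and with each rat left out (grey points), beside the reported value (black point and dotted line). All values lie above 0, from 1.61 to 2.39 in Fos, 0.55 to 0.98 in Fosb and 0.10 to 0.24 in Jun.

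Other genes were compared with the mean pattern of the 3, by the Pearson correlation of log2 CPM over the 10 rats. Of 16134 other genes, 11 had a value of 0.9 or more. The 2 nearest were ENSRNOG00000001781, at 0.943, and ENSRNOG00000003300, also at 0.943. The former was between 8.53 and 10.8 CPM in the control group, highest in replicate 5, and between 9.82 and 12.5 CPM in the MK-801 group, lowest in replicate 1. ENSRNOG00000003300 was between 11.6 and 21.5 CPM in the control group and between 12.6 and 53.4 CPM in the MK-801 group, with the same rats at those ends, and its log2 fold change was 1.27. The position of these rats follows from the way the genes were picked.

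By the deviations from the group means alone, 10 other genes had a correlation of 0.9 or more with the mean pattern, of which 2 were higher in the MK-801 group. Among those lower in the MK-801 group, the nearest by this measure were ENSRNOG00000055769, at 0.958, and ENSRNOG00000014235, at 0.936. Their correlations of levels with the mean pattern were only -0.07 and 0.23, so they were alike in the deviations and not in the levels. ENSRNOG00000055769 was at 1.96 CPM in control replicate 5 and at 0.633 CPM in MK-801 replicate 1, its highest and its lowest rat, with a log2 fold change of -0.57. ENSRNOG00000014235 was at 34.0 CPM in control replicate 5 and at 25.3 CPM in MK-801 replicate 1, also its highest and its lowest rat, with a log2 fold change of -0.09. The mean of ENSRNOG00000055769 over the rats was only 1.32 CPM. Both genes were picked from 16134 by this correlation, so the position of these rats again follows from the way they were picked. The files do not give names for any of the genes given by identifier. Lists of other AP-1 subunits, upstream kinases, further immediate early genes and AP-1 target genes were not analysed here for the same reason.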

How the data were processed

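PFC RNA of 10 SD rats (5 control, 5 MK-801) was sequenced, 1 library per rat. According to the methods and the submitters' processing notes, the authors used HISAT2 (version 2.2.1), SAMtools (version 1.15.1), the mRatBN7.2 build with the Ensembl annotation, and featureCounts (Subread version 2.0.1). The deposited values are raw whole-number counts per gene, and the strand setting is not given in the sources used here, so overlapping or antisense genes may share reads.

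Here, edgeR (version 4.0.16, R version 4.3.3) kept 16137 genes by filterByExpr (minimum count 10, minimum total 15), scaled libraries by TMM and fitted the quasi-likelihood model to group, two-sided with Benjamini-Hochberg adjustment. CPM uses the same scaling, and log2 CPM a prior count of 2. The standard error is the absolute log2 fold change over the square root of its F statistic. DESeq2 (version 1.42.0), limma-voom (limma version 3.58.1), 3 other scalings, other filters, a prior count of 2 in place of 0.125, the replicate block and rats left out were alternatives. The code was tested on simulated data. Precision is limited mainly by the spread between rats. Counting error was 7.56% or less for any of these genes in any rat, below the coefficient of variation in each full group. Among control replicates 1 to 4, however, the counting error of Fos was larger than its coefficient of variation.

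The members and lists were chosen with earlier results of these data known. Gene names of the 3 measured genes follow the identifiers under which they were chosen. Promoter sequences were not used. The reference held no promoter window for Fos or Jun, and the RefSeq window of Fosb lies inside the annotated span of the gene itself. RefSeq (GRCr8) matched 0 of the 30560 identifiers, so named lists and markers planned beforehand were not analysed. By the naming rule for such a case, 4 genes are given by identifier, 2 higher in MK-801 that were most like the AP-1 genes in level over the rats and 2 lower in MK-801 that were most like them in the deviations from the group means.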

Additional observations from a re-analysis of the deposited data

Results flagged for a closer look

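Of 6 groups of 5 rats examined (3 genes, 2 groups), 2 had a rat whose gap to its nearest neighbour exceeded 0.71 of the range of log2 CPM in its group. Chance gives about 1 in 20 for groups not chosen by their values, a rate that does not apply here, since both concern Fos, which was chosen with these values known. Control replicate 5, at 13.6 CPM, lay above the other controls by 0.918 of the range. MK-801 replicate 1, at 6.99 CPM, lay below the other MK-801 rats by 0.789 of the range. In Fosb, the gap of control replicate 5 was 0.0675 and that of MK-801 replicate 1 was 0.524. In Jun, these gaps were 0.417 and 0.00592.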

How the results depend on the processing

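The log2 fold changes of Fos, Fosb and Jun kept their direction in 11 of 11 other settings. They also kept it in 10 of 10 fits that left out 1 rat. Those fits gave 1.75 to 2.13 for Fos, 0.60 to 0.90 for Fosb and 0.16 to 0.23 for Jun. All moves were below the within-group SD of single rats (0.82, 0.45 and 0.09). This limit is wider than the standard errors (0.39, 0.23 and 0.06), so it does not show stability. Without control replicate 5 and MK-801 replicate 1, Fos moved from 1.88 to 2.39, Fosb from 0.73 to 0.98 and Jun from 0.18 to 0.24. Jun also moved from 0.18 to 0.10 in the fit with the covariate described above. Each of these moves exceeded the standard error. Same-numbered rats are not stated to be paired. Their deviations correlated above 0.1 in 3 of 5 pairs, with values from -0.05 to 0.32. Control and MK-801 rats of different number were not compared in this way, so these values do not show whether rats were paired. With the replicate block, the values were 1.74, 0.68 and 0.18, and 0 genes had an adjusted p-value under 0.05.

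Genes with an adjusted p-value under 0.05 numbered 106 with DESeq2 and 15 in edgeR among 8 rats without control replicate 5 and MK-801 replicate 1, against 0 with all rats and from 0 to 12 with each rat left out, the 12 without MK-801 replicate 1. Genes by the criteria of the study that were higher in MK-801 numbered 27, but 55 with DESeq2, 143 with no filter on low counts and 20 to 39 with each rat left out. Genes without overlap and higher in MK-801 numbered 177, but 746 among the 8 rats and 212 to 599 with each rat left out, the highest without control replicate 5. More genes pass such a criterion when fewer rats are compared.

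The mean correlation of deviations, over the 3 genes measured, was 0.65. It was 0.83 with deviations from the overall mean, which keep the difference between groups, 0.21 among the 8 rats, and 0.54 to 0.72 with each rat left out. The cause of the other changes was not tested. No setting gave a value for Junb.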
